A study of Mus musculus with 32 samples.

Results

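The ectodysplasin receptor EDA2R and the genes around it in noncanonical NF-kB signalling were followed in mouse muscle that lacks myotubularin (MTM1), a phosphoinositide phosphatase, through postnatal life. Loss of this protein causes X-linked myotubular myopathy, a severe congenital muscle disease. The 9 genes were taken by name from the 54838 genes of the deposited table, namely the receptors Eda2r, Edar and Tnfrsf12a, the ligand Eda, the adaptor Edaradd, and Map3k14, Relb, Nfkb2 and Birc3. They were chosen by name with their knockout (KO) to wild-type (WT) expression ratios at the 4 ages already known, so their KO to WT values are given as a description, without a P-value. Poly(A) RNA of 32 libraries was sequenced, 4 from WT mice and 4 from Mtm1 KO mice per age, on postnatal days 1, 14, 21 and 35 (P1, P14, P21 and P35). All mice had the strain background C57BL6/J, the KO carries a germline deletion in exon 4 of Mtm1, an X-linked gene, and the WT mice were littermates with the intact allele. The tissue is labelled skeletal muscle, and per the methods it was the tibialis anterior (TA), a limb muscle.

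EDA2R, also called XEDAR, is a receptor of the TNF receptor superfamily that binds EDA-A2, an isoform of ectodysplasin A, whereas EDAR binds the isoform EDA-A1 and signals through its adaptor EDARADD in developing hair, teeth and glands. TNFRSF12A (Fn14) is the receptor of the cytokine TWEAK and is known to be induced in injured and denervated muscle. Receptors of this kind can release the kinase NIK, encoded by Map3k14, from the degradation that a complex of TRAF2, TRAF3 and the ubiquitin ligases cIAP1 and cIAP2 (Birc2 and Birc3) imposes on it. NIK then drives processing of p100, the product of Nfkb2, to p52, which enters the nucleus with RELB, and Nfkb2, Relb and Birc3 are themselves known NF-kB target genes. Signalling from EDA2R through NIK has been linked to muscle wasting.

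Promoter windows of 300 bases around the RefSeq start sites (GRCm38.p6) are shown for Eda2r and the 4 other members that were called higher in KO at P21 or P35 and have a window. Capitals mark matches, on either strand, to the loose kappaB-like motif GGGNNNNNCC, and overlapping matches run together.
Eda2r, chrX:97377160-97377459, minus strand: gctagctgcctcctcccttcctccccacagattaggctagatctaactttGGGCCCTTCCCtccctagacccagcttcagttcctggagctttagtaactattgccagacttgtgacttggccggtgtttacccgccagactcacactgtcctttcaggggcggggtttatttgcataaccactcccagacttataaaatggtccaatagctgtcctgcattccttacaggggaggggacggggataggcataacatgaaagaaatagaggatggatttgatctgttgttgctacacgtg
Nfkb2, first of its 3 windows, chr19:46304487-46304786, plus strand: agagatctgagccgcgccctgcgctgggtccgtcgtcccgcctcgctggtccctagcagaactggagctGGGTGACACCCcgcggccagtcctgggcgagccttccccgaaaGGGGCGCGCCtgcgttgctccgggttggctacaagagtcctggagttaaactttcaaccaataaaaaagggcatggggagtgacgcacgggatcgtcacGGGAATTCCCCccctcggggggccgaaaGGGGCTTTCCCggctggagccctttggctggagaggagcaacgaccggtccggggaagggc
Nfkb2, the second window, chr19:46305445-46305744, plus strand: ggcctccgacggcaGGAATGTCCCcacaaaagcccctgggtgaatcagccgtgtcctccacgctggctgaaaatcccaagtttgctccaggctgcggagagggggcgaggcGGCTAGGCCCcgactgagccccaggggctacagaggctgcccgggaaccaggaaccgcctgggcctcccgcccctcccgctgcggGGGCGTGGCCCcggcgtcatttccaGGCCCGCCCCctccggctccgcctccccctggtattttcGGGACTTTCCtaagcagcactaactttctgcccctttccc
Map3k14, chr11:103267352-103267651, minus strand: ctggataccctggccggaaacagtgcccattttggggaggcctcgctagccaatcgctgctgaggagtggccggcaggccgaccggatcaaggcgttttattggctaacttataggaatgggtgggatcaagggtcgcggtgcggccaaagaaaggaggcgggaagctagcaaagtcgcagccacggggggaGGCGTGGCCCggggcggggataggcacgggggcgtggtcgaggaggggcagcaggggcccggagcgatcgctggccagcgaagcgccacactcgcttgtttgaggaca
Birc3, chr9:7873121-7873420, minus strand: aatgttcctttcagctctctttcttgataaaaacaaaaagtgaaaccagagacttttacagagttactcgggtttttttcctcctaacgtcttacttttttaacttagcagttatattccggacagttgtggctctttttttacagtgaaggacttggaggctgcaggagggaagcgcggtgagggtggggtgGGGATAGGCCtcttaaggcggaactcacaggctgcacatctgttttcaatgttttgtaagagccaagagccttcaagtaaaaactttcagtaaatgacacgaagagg
Tnfrsf12a, chr17:23677400-23677699, minus strand: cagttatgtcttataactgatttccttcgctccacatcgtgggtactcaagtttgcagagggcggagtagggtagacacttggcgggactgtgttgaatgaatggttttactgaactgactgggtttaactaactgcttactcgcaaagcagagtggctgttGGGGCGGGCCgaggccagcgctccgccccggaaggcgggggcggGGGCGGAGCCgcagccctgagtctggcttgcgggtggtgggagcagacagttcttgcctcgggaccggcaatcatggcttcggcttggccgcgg
The loose motif occurred in 50.8% of the 32851 promoter windows of the table, so a match is common. The stricter kappaB consensus occurred in 4.51% of them. Nfkb2 was the gene with consensus matches among the 8 members that have a window. Its first window held 4, which include GGGAATTCCC on both strands 39 bases upstream of the start site and GGGGCTTTCC 11 bases upstream. The second window held 2, at GGAATGTCCC 236 bases upstream on the minus strand and at GGGACTTTCC just inside the transcript. Eda2r, Map3k14, Birc3, Tnfrsf12a, Eda, Edar and Edaradd had 0 consensus matches in these windows. Such matches describe letters in a window and say nothing of binding in muscle. Relb has no window here.

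Totals of 49321035 to 85631408 counts per library (median 59926198) were available, and the spread between any pair of replicates exceeded sampling noise. Levels are given as CPM (counts relative to library size, scaled with TMM over all 32 libraries). The targeted gene Mtm1 (chrX:71210767-71315691) lay below WT in every KO library, at 5.26 to 6.01 CPM in WT and 2.32 to 3.91 CPM in KO at P1, and at 18.9 to 24.9 CPM in WT and 2.64 to 4.51 CPM in KO from P14 on. The 6 markers of muscle fibres summed to 65469 to 175787 CPM from P14 on, against 15042 to 30712 CPM at P1, where KO replicate 4 was the lowest. At P1, 12 keratinocyte markers summed to 1896 to 6860 CPM, with WT replicate 3 the highest and KO replicate 3 the lowest, whereas later WT and KO libraries held 8.53 to 45.6 CPM. A gene is called a differentially expressed gene (DEG) here when its adjusted P-value, from edgeR's quasi-likelihood test, is under 0.01 and its absolute log2 fold change is over 0.585, a fold of 1.5. The labels do not say that replicates came from separate litters, so the tests measure the spread between these 32 libraries.

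**Figure D1:**
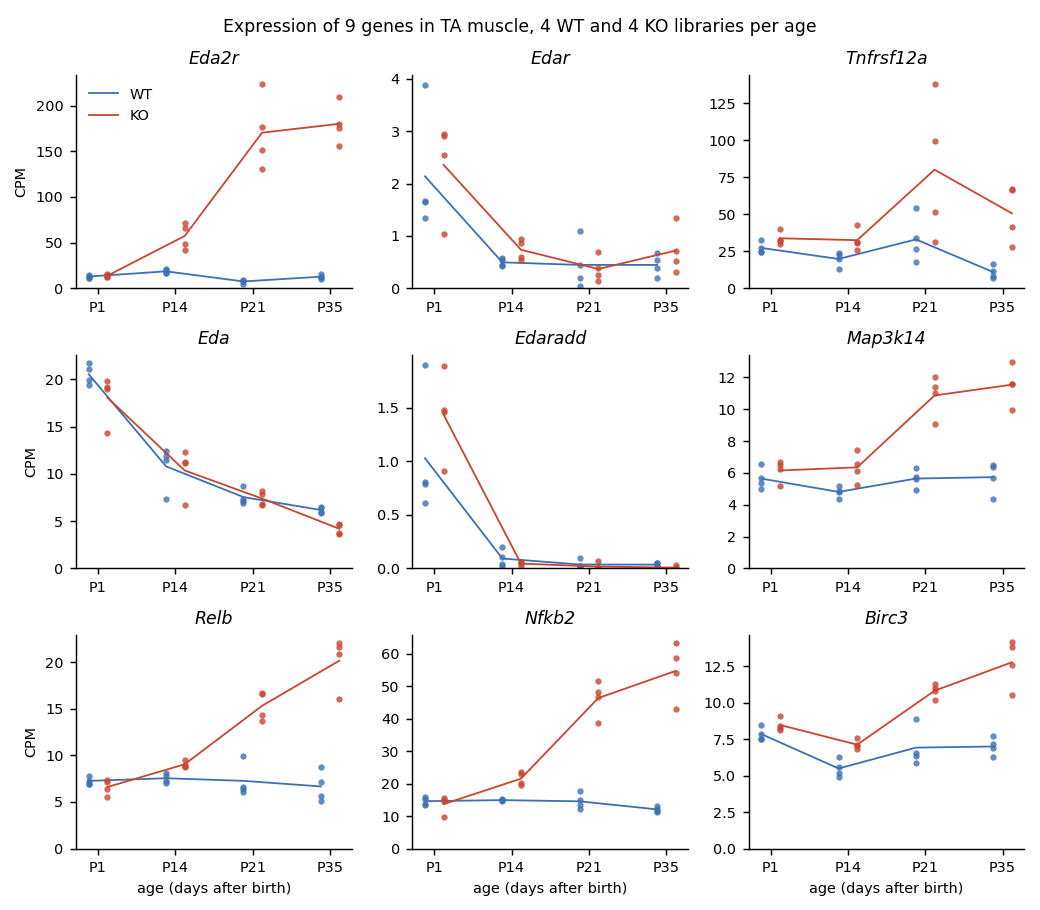
Expression of the 9 genes in CPM (vertical axes, linear from 0) by age (evenly spaced, not to scale), with 1 point per library and lines through the means of the 4 WT (blue) and 4 KO (red) libraries. Eda2r in KO climbed from 42.0 to 71.7 CPM at P14 to between 131 and 223 CPM at P21, while WT stayed between 5.11 and 20.8 CPM at every age, and Eda declined with age in both genotypes.

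Eda2r (ENSMUSG00000034457, chrX:97333840-97377216, minus strand, 26.0 Mb from Mtm1) had the largest KO to WT difference of the 9 genes at P14, P21 and P35. At P1 its 4 WT libraries held 11.2, 14.6, 11.7 and 13.9 CPM and its KO libraries 14.2, 12.2, 16 and 12.5 CPM. The genotypes overlapped, with a log2 fold change of 0.11 ± 0.116 (SE). At P14 WT held 16.3, 17.0, 20.1 and 20.8 CPM and KO 42.0, 49, 66.3 and 71.7 CPM. Every KO library was at this age above every WT library. At P21 WT fell to 5.11, 8.75, 8.31 and 7.80 CPM while KO held 223, 176, 131 and 151 CPM. At P35 WT held 12.7, 12.1, 9.92 and 16 CPM and KO 156, 209, 175 and 180 CPM. The 8 KO libraries of the last 2 ages thus stood far above all WT libraries of the series.

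On the log2 scale, KO exceeded WT in Eda2r by 1.62 ± 0.173 at P14 (3.08-fold), 4.51 ± 0.219 at P21 (22.8-fold) and 3.85 ± 0.158 at P35 (14.5-fold), from a fit of the 8 libraries of each age. By size of the rise it ranked 18 of 15728 genes at P14, 13 of 15179 at P21 and 62 of 15595 at P35. At P14 it was just outside the call rule in the fit without a block. It was a DEG there when the replicate number entered as a block, with a log2 fold change of 1.60. Among the 8 fits that left out 1 library it was a DEG in 1, that without KO replicate 1, with 1.74. In order of mean level, KO P35 (180 ± 21.8 CPM, SD) and KO P21 (170 ± 39.9) overlapped, followed without overlap by KO P14 (57.2 ± 14.0), WT P14 (18.5 ± 2.24) and then KO P1 (13.7 ± 1.76), WT P1 (12.8 ± 1.68) and WT P35 (12.7 ± 2.52), which overlapped one another, and last by WT P21 (7.49 ± 1.64).

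The KO libraries of all ages entered the KO to WT ratios known when the genes were listed, so the steps between ages in KO are given as a description, without a P-value. The WT libraries entered those ratios as well. Steps between ages in WT are another contrast and are given with their test, which is not independent of the listing in full. A low WT level at an age raises the ratio of that age. The P-values of members in WT are therefore not independent evidence of a step. Neighbouring steps share the libraries of the age between them. In WT, Eda2r fell from P14 to P21 by 1.29 on the log2 scale (SE 0.168, edgeR adjusted P=6.54e-05) and rose from P21 to P35 by 0.74 (SE 0.168, adjusted P=0.00652). The latter call was lost, with adjusted P-values from 0.0115 to 0.0234, without WT P21 replicate 1, 3 or 4 or WT P35 replicate 1, 2 or 4, in 6 of the 8 fits that left out 1 library. From P1 to P14 the WT difference was 0.51 (SE 0.162) with TMM and -0.26 with scaling by library totals, which moved the median of all genes by -0.76 in that step. In KO the steps of Eda2r were 2.02 ± 0.181 from P1 to P14, 1.56 ± 0.177 from P14 to P21 and 0.08 ± 0.173 from P21 to P35 (1.30, 1.54 and 0.24 with library totals).

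Tnfrsf12a (chr17:23675445-23677468, minus strand), the TWEAK receptor, varied widely between libraries of 1 group. At P1 its levels were 24.4 to 32.5 CPM in WT and 30.1 to 40.3 CPM in KO, and at P14 they were 12.9 to 23.8 CPM and 25.7 to 43.1 CPM. The P14 groups did not overlap. At P21 WT held 26.3, 34.2, 54.1 and 17.6 CPM and KO 51.9, 138, 99.8 and 31.1 CPM, so that KO replicate 4 lay below WT replicates 2 and 3. At P35 WT held 8.32, 16.5, 6.96 and 12 CPM and KO 27.6, 67.4, 41.7 and 66.2 CPM, without overlap. The log2 fold changes were 0.32 ± 0.115, 0.71 ± 0.212, 1.29 ± 0.470 and 2.24 ± 0.340 in order of age, and only that of P35 met the call rule. Within WT it fell from P21 to P35 by 1.61 on the log2 scale (SE 0.316, edgeR adjusted P=0.00276), a call lost without WT P35 replicate 1 (adjusted P=0.0107). In KO the step from P14 to P21 was 1.29 ± 0.366, and 1.56 without KO P21 replicate 4.

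Edar (chr10:58600789-58675654, minus strand), the receptor of EDA-A1, was low after birth, and its genotypes overlapped at all 4 ages. It reached 1.35 to 3.89 CPM in WT and 1.03 to 2.95 CPM in KO at P1 and at most 1.34 CPM in any library from P14 on, with as few as 2 counts in a WT P21 library. Its KO to WT log2 differences of 0.16 ± 0.405, 0.57 ± 0.230, -0.26 ± 0.733 and 0.72 ± 0.493 from P1 to P35 did not meet the call rule at any age. Edar fell from P1 to P14 in WT by 2.13 (SE 0.534, edgeR adjusted P=0.00182), while the KO step was -1.71 ± 0.452. Edaradd (chr13:12472632-12520438, minus strand), the adaptor of EDAR, was present at 0.614 to 1.90 CPM in WT and 0.912 to 1.89 CPM in KO at P1 and had 0 to 11 counts per library later, of which 3 counts or fewer cannot be told from 0. It fell from P1 to P14 in WT (edgeR adjusted P=1.87e-05), from 66 to 193 counts per library to between 1 and 11, and in KO it went from 78 to 212 counts to between 1 and 4. No fold is given against such low counts, and the gene was too low for a KO to WT fit from P14 on.

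Both genes moved with the keratinocyte markers among the libraries of P1 and in the fall from P1 to P14. Over the 8 libraries of P1, log2 levels of Edar and Edaradd had Pearson's r of 0.95 and 0.80 with the summed markers, as a description over libraries that share the same dissection, and Edar and Edaradd were highest in WT in replicate 3, where the sum was 6860 CPM against 2164 to 2846 CPM in the other WT libraries. In KO, Edaradd was highest in replicate 4 (1.89 CPM), where the sum was 3907 CPM, against 1.46 CPM in replicate 1, where it was 5556 CPM. From P1 to P14 the WT sum went from between 2164 and 6860 CPM to between 12.3 and 17.5 CPM. At P21 it was 8.53 to 12.8 CPM in WT and 35.1 to 43.4 CPM in KO. Of the 12 markers 4 were tested there. Trp63 (2.27) and Sfn (2.22) were DEGs, Krt10 (0.21) and Col17a1 (-0.85) were not, and Krt15 and Dsg3 were at 0 in both genotypes. Edar did not follow the sum at P21, with a KO to WT difference of -0.26 ± 0.733. Without both libraries numbered 3 at P1, a choice made after seeing the data, the KO to WT difference was 0.86 for Edar and 1.13 for Edaradd in place of 0.16 and 0.49, and neither was a DEG. For both genes these were the highest WT and the lowest KO library of P1. Leaving them out was thus bound to raise the difference, and nothing is read from the change. The part of skin RNA in these values was not tested.

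**Figure D2:**
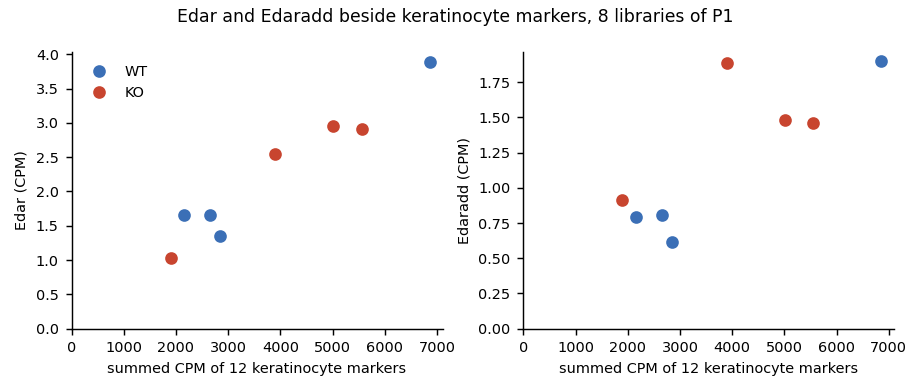
Edar (left) and Edaradd (right) in CPM against the summed CPM of 12 keratinocyte markers in the 8 libraries of P1, 1 point per library, WT blue and KO red, linear axes from 0. Edar was lowest at 1.03 CPM in KO replicate 3, where the marker sum was 1896 CPM, and highest at 3.89 CPM in WT replicate 3, where it was 6860 CPM.

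Eda (chrX:99975606-100400762, plus strand), the gene of the ligand, had its highest levels at P1 and its lowest at P35 in both genotypes. WT held 19.4 to 21.7 CPM at P1, 7.35 to 12.4 CPM at P14, 6.93 to 8.74 CPM at P21 and 5.86 to 6.47 CPM at P35. In KO the corresponding levels were 14.3 to 19.8, 6.72 to 12.3, 6.74 to 8.22 and 3.64 to 4.72 CPM, and the lowest P14 library was replicate 4 in both genotypes. The genotypes overlapped until P21, with log2 differences of -0.17 ± 0.100, -0.06 ± 0.216 and -0.02 ± 0.112. At P35 KO held 4.72, 4.62, 3.64 and 3.76 CPM, below all 4 WT libraries. That difference of -0.54 ± 0.124 fell short of the fold rule, passed it without KO P35 replicate 1 (-0.60) or 2 (-0.59), and was -0.13 with library totals, a scaling that moved the median of all genes by 0.40 at this age. Eda fell from P1 to P14 in WT by 0.94 (SE 0.127, edgeR adjusted P=5.10e-06), whereas the KO steps were -0.84 ± 0.165 from P1 to P14 and -0.82 ± 0.170 from P21 to P35 (-0.66 with library totals). The table counts whole genes, so the isoforms EDA-A1 and EDA-A2 cannot be told apart.

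Nfkb2 (chr19:46304320-46312385, plus strand), which encodes p100 and p52, was higher in KO than in WT from P14 on. At P1 WT held 13.5, 13.8, 15.1 and 15.9 CPM and KO 15.5, 14.7, 14.8 and 9.62 CPM, and the groups overlapped (-0.08 ± 0.141). At P14 the WT libraries were within 14.6 to 15.3 CPM, whereas KO held 20.1, 19.7, 22.8 and 23.4 CPM, all above WT. At P21 WT held 12.3, 14.8, 17.7 and 13.3 CPM and KO 46.7, 48.2, 38.7 and 51.6 CPM. At P35 WT held 11.6, 13.2, 12.1 and 11.3 CPM and KO 43.0, 53.9, 63.1 and 58.6 CPM. All 4 KO libraries were above WT at each of these 3 ages. KO exceeded WT by 0.52 ± 0.0693 at P14, 1.68 ± 0.133 at P21 (3.2-fold) and 2.20 ± 0.120 at P35 (4.61-fold). Its exons overlap those of Psd on the opposite strand, and Psd reached at most 3.69 CPM in any library.

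Across ages Nfkb2 was level in WT, where no step was called and the first differed by 0.01 with TMM but -0.75 with library totals. In KO the step from P14 to P21 was 1.10 ± 0.146. From P1 to P14 the KO step of 0.62 ± 0.145 was 0.48 without KO P1 replicate 4 and -0.08 with library totals, which moved the median of all genes by -0.70. KO P1 replicate 4 was the library with the lowest summed muscle fibre markers, 15042 CPM against 22193 to 30712 CPM in the other KO libraries of P1.

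Relb (chr7:19606217-19629438, minus strand), the partner of p52, was level in WT at 5.06 to 9.95 CPM at all ages. KO held 5.55 to 7.36 CPM at P1 and 8.77 to 9.56 CPM at P14, above the WT libraries of P14 at 7.06 to 8.10 CPM. At P21 WT held 6.12, 6.42, 9.95 and 6.58 CPM and KO 13.7, 16.7, 16.6 and 14.3 CPM. At P35 WT held 5.69, 8.75, 5.06 and 7.17 CPM and KO 16.1, 20.9, 22.1 and 21.6 CPM, again without overlap. The KO to WT log2 differences were -0.12 ± 0.103, 0.26 ± 0.0744, 1.09 ± 0.166 (2.13-fold) and 1.62 ± 0.175 (3.08-fold) in order of age. The KO steps were 0.75 ± 0.116 from P14 to P21 and 0.39 ± 0.114 from P21 to P35. From P1 to P14 the WT difference was 0.04 with TMM and -0.72 with library totals, and that of KO was 0.41 and -0.29.

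Map3k14 (chr11:103219762-103267472, minus strand), the gene of NIK, held 4.35 to 6.53 CPM in every WT library. In KO it held 5.18 to 6.71 CPM at P1 and 5.27, 6.10, 6.58 and 7.45 CPM at P14, where the highest WT library had 5.21 CPM. At P21 WT held 5.60, 4.94, 6.30 and 5.75 CPM and KO 11.0, 11.4, 12 and 9.07 CPM, and at P35 WT held 5.69, 6.51, 6.36 and 4.38 CPM and KO 9.98, 13.0, 11.6 and 11.6 CPM. No KO library overlapped WT at either age. The differences were 0.14 ± 0.114, 0.40 ± 0.117, 0.95 ± 0.117 (1.94-fold) and 1.03 ± 0.140 (2.05-fold). In KO the step of Map3k14 from P14 to P21 was 0.77 ± 0.126, and the step before, 0.01 with TMM, was -0.70 with library totals.

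Birc3 (chr9:7848699-7873186, minus strand), the gene of cIAP2, held 4.93 to 8.91 CPM in WT over all ages. KO held 8.15 to 9.10 CPM at P1, 6.86 to 7.55 CPM at P14, 10.2 to 11.3 CPM at P21 and 10.5 to 14.2 CPM at P35. It lay above WT without overlap at P14, P21 and P35, by 0.37 ± 0.0957, 0.65 ± 0.133 and 0.89 ± 0.116. The P21 call was fragile, since among the 8 fits that left out 1 library it held in 1, that without WT P21 replicate 3, and the other fits gave 0.58 to 0.67. From P14 to P21 the KO step of Birc3 was 0.59 ± 0.0937, and 0.54 with library totals.

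**Figure D3:**
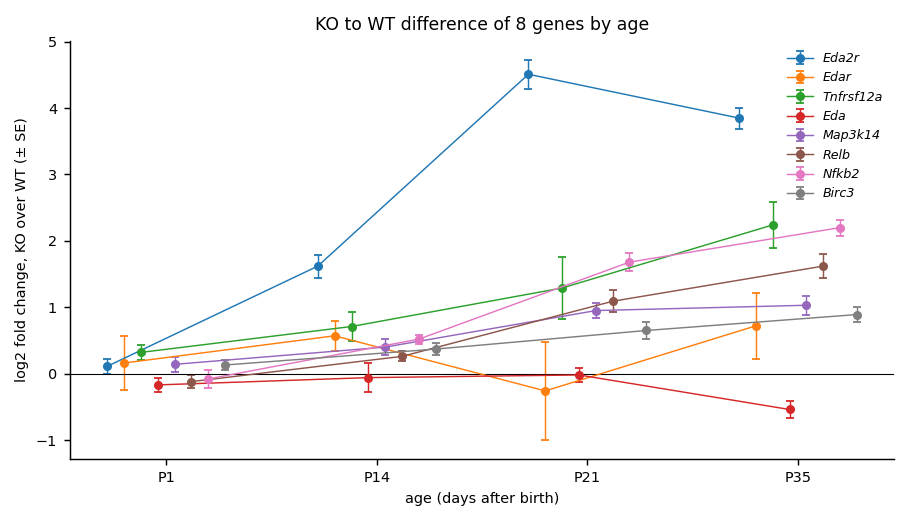
KO to WT difference of the 8 genes tested at all ages, as log2 fold change (vertical axis) with SE from edgeR's fit of the 8 libraries of each age (horizontal axis, evenly spaced, not to scale). Eda2r stood highest from P14 on, at 1.62, 4.51 and 3.85, Nfkb2, Relb, Map3k14 and Birc3 lay above 0 at P14, P21 and P35, and Eda lay at -0.54 at P35.

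By count, 0 of 9 members were DEGs at P1, where 0.0442% of the 18100 genes tested were, and 0 of 8 at P14, where 0.0318% were (with the replicate block, 1 of 8, Eda2r, beside 0.623%). At P21, 5 of the 8 tested were DEGs, Eda2r, Nfkb2, Relb, Map3k14 and Birc3, all higher in KO, where 3.18% of 15179 genes were called higher. At P35, 6 of 8 were, those genes and Tnfrsf12a, beside 8.49% of 15595 genes called higher. The median log2 difference of the members tested was 0.13, 0.46, 1.02 and 1.33 in order of age, against 0.01, 0.00, 0.01 and 0.04 over all genes. At P14, 6 of 8 members had every KO library above every WT library, a pattern found in 3.28% of genes. At P21 it was 5 of 8 beside 13.7%, and at P35 it was 6 of 8 beside 19.2%, with Eda below WT, where 39.6% of genes did not overlap in either direction. Since the genes were listed with these contrasts known, nothing is read from those counts. Across ages in WT, 3 of 9 members (Edar, Eda and Edaradd, all lower) were called from P1 to P14 beside 54.2% of 17591 genes (29.7% lower), 1 (Eda2r) from P14 to P21 beside 7.13%, and 2 (Eda2r and Tnfrsf12a) from P21 to P35 beside 3.80%. With library totals the first WT count was 8 of 9. In KO the counts were 5 of 9 beside 52.9% of 17987 genes, 5 of 9 beside 7.47% (all higher, beside 3.31% called higher), and 1 of 9 beside 4.81%. Nothing is read from the KO counts either, as the KO values were known when the genes were listed.

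Levels between genes can be compared per kilobase of exon. In WT at P35 the order was Tnfrsf12a (5.67 ± 2.22 CPM per kb, SD, n=4), Nfkb2 (2.63 ± 0.182), Eda2r (2.15 ± 0.428), Relb (1.72 ± 0.424), Birc3 (1.40 ± 0.119), Eda (0.905 ± 0.0454), Map3k14 (0.876 ± 0.148), Edar (0.123 ± 0.0565) and Edaradd (0.00530 ± 0.00199). In KO at P35 Eda2r stood first at 30.6 ± 3.70 CPM per kb, within the spread of Tnfrsf12a at 26.3 ± 10.1. Nfkb2 followed at 11.9 ± 1.89 and Relb at 5.19 ± 0.707. The level of Eda, the ligand, was 0.613 ± 0.0824 CPM per kb there. At P21 Tnfrsf12a had the highest mean in both genotypes on this scale, at 17.1 ± 8.08 in WT and 41.5 ± 24.9 in KO. Eda2r was at 1.27 ± 0.278 in WT and 28.9 ± 6.77 in KO, the latter within the spread of Tnfrsf12a.

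The 5 genes whose log2 CPM over all 32 libraries ran most like that of Eda2r, out of 18582, were Cpne2 (Pearson's r of 0.980), which encodes a copine, Cilp (0.978), which encodes a matrix protein of cartilage, Nfkb2 (0.941), Gm13583 (0.936) and Tlr4 (0.935), an innate immune receptor. The libraries fall into shared groups of age and genotype, so no P-value is given. The members were listed with their KO to WT ratios known, which in part sets their ranks here, so nothing is read from them. Cpne2 went from 4.0 to 7.35 CPM in WT to between 48.2 and 73.2 CPM in KO at P21, and Cilp from 22.9 to 67.4 CPM to between 999 and 1190 CPM. Gm13583 was at 0 in all WT libraries of P14, P21 and P35 and reached at most 0.634 CPM in KO. Among the members, Relb ranked 17 (r=0.89), Map3k14 51 (0.84), Birc3 363 (0.70) and Tnfrsf12a 929 (0.59), while Edar (-0.16), Edaradd (-0.48) and Eda (-0.50) ran the other way or apart. These ranks depended on the measure. With the 24 libraries of P14, P21 and P35 alone, 2 of the 5 genes, Cilp and Cpne2, were among the first 5, and Nfkb2 ranked 15, Relb 91, Map3k14 232, Birc3 486 and Tnfrsf12a 1439. With Spearman's rho over all 32 libraries Nfkb2 ranked 55, Relb 87, Map3k14 829, Tnfrsf12a 1500 and Birc3 1510.

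**Figure D4:**
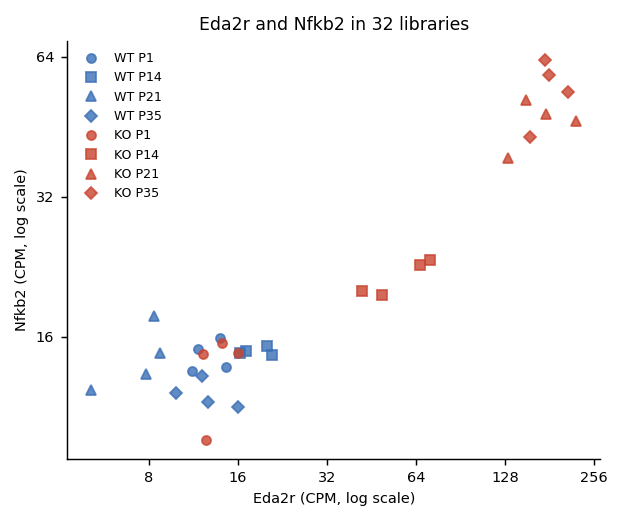
Nfkb2 against Eda2r in CPM (both axes log scale), 1 point per library, colour for genotype and shape for age. The 16 WT libraries and the KO libraries of P1 lie together at 20.8 CPM of Eda2r or less, the KO libraries of P14 stand apart at 42.0 to 71.7 CPM, and those of P21 and P35 at 131 to 223 CPM with 38.7 to 63.1 CPM of Nfkb2.

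The rest of the pathway was read from 92 genes in 7 lists, tested with edgeR over all genes. The lists were drawn up with earlier results of these data known, so their counts and P-values are not independent evidence of a direction. At P1 0 of the 86 tested were DEGs (15 with an unadjusted P-value under 0.05, and 2 by DESeq2, Fbxo32 and Ccl2, beside 0.514% of all genes), and at P14 0 of 73 (13 with an unadjusted P-value under 0.05, and 1 by DESeq2, Tnfrsf23, beside 0.337%). With the replicate block at P14, 4 were called higher in KO, beside 0.623% of all genes called by that fit, and are named for that reason after their values were seen, Tnfrsf23 (0.77), Cdkn1a (1.09), Ngfr (0.64) and Phlda3 (0.64). At P21 14 of 75 were DEGs, or 18.7% beside 4.67% of all genes, 12 higher and 2 lower in KO. At P35 22 of 76 were, 18 higher beside 8.49% of all genes and 4 lower beside 7.52%. Their median log2 difference was 0.24 at P21 and 0.26 at P35, against 0.01 and 0.04 over all genes.

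Of the other ligands and receptors of the noncanonical pathway, such as Ltbr, Cd40 and Tnfsf12, the gene of TWEAK, 0 of 7 tested were DEGs at P21 (1 with an unadjusted P-value under 0.05, 0 by DESeq2), beside 4.67% of all genes, and 0 of 7 at P35 (0 and 0), beside 8.49% called higher and 7.52% lower. With 7 genes such a count is near the background. Many of the cytosolic regulators, though not all, hold NIK in check or edit ubiquitin chains. Of the whole list of cytosolic regulators, 3 of 9 were called higher at P21 (beside 3.18% of all genes) and 2 of 9 at P35 (beside 8.49%). At P21 these were the deubiquitinase gene Cyld (32.4 ± 1.66 CPM in WT, 53.2 ± 3.52 in KO, log2 0.72, adjusted P=3.41e-04), Traf2 (20.8 ± 2.13 and 36.9 ± 3.77, 0.84, adjusted P=7.52e-04) and Traf3 (40.0 ± 3.03 and 62.3 ± 4.88, 0.65, adjusted P=9.71e-04). At P35 they were Traf2 (17.0 ± 1.99 and 29.0 ± 5.17, 0.79, adjusted P=0.00167) and the low Traf1 (0.660 ± 0.151 and 1.64 ± 0.522, 1.33, adjusted P=0.00438), which stayed a DEG in 3 of the 8 fits without 1 library. TRAF2 and TRAF3 are the adaptors through which cIAP1 and cIAP2 reach NIK.

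Of the canonical NF-kB genes 1 of 16 was a DEG at P21 (6.25%, beside 4.67% of all genes) and 3 of 16 at P35 (18.8%, beside 8.49% called higher and 7.52% lower), shares near the background. Nfkbie, an inhibitor of the IkB family, rose from 1.72 ± 0.300 to 3.84 ± 0.143 CPM at P21 (1.17, adjusted P=0.00106) and from 1.12 ± 0.471 to 5.58 ± 1.65 CPM at P35 (2.34, adjusted P=9.06e-04). Bcl3, a nuclear partner of p50 and p52, rose at P35 (1.22, adjusted P=0.00227). Tab2, an adaptor of the kinase TAK1, fell at P35 by 0.95 on the log2 scale (adjusted P=1.53e-04), and by 0.54 with library totals, which is under the fold rule. Among NF-kB target genes 3 of 9 were DEGs at P21 (1 higher and 2 lower), beside 4.67% of all genes. At P35 it was 4 of 10, with 3 higher beside 8.49% and 1 lower beside 7.52%. The chemokine gene Cxcl10 was higher at P21 (0.145 ± 0.0587 CPM in WT, 1.97 ± 0.257 in KO, 3.74, adjusted P=8.28e-05) and P35 (2.77, adjusted P=6.50e-04), at no more than 19 counts in any WT library of these ages. Icam1, an adhesion molecule, rose at P35 (3.90 ± 0.452 to 7.63 ± 1.27 CPM, 0.99, adjusted P=8.48e-04). Sod2, the mitochondrial superoxide dismutase, went down instead, by 0.73 at P21 (adjusted P=3.07e-04, 0.55 with library totals) and by 1.15 at P35 (adjusted P=8.51e-05). Tnfaip2 decreased by 0.64 at P21 (adjusted P=0.00518), a call that held in 2 of the 8 fits without 1 library.

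Other TNF receptors had 3 of 20 called higher at P21, beside 3.18% of all genes, and 3 of 20 at P35, beside 8.49%. Tnfrsf23, a decoy receptor of TRAIL, rose from 4.95 ± 0.704 to 23.3 ± 4.59 CPM at P21 (2.24, adjusted P=8.79e-05) and from 4.55 ± 1.09 to 27.0 ± 8.75 CPM at P35 (2.59, adjusted P=1.43e-04). Its neighbour Tnfrsf22 rose by 1.57 and 1.68 (adjusted P=0.00256 and 0.00140), and reads of this pair of similar genes may have been split between them. Tnfrsf18 was at 3 counts or fewer in every WT library of P21 and at 0.226 to 0.499 CPM in KO. Ngfr, the p75 neurotrophin receptor, rose at P35 (1.90 ± 0.235 to 3.37 ± 0.432 CPM, 0.84, adjusted P=0.00230). EDA2R has been assigned to the p53 target genes in human cells. Of this list 3 of 15 were called higher at P21, beside 3.18% of all genes. At P35 7 of 15 were DEGs, 6 higher beside 8.49% of all genes and 1 lower (Ccng1, -0.82) beside 7.52%. The other genes of the list were not called, and its median log2 difference was 0.27 at P21 and 0.28 at P35. Cdkn1a, the cell cycle inhibitor p21, went from 26.6 ± 3.48 to 275 ± 69.4 CPM at P21 (3.38, adjusted P=3.11e-05) and from 17.6 ± 8.24 to 247 ± 82.0 CPM at P35 (3.83, adjusted P=1.18e-04). Its KO effect was larger at P21 than at P14 by 2.31 (edgeR interaction, adjusted P=0.00369), where 0.425% of all genes differed between these ages. The proapoptotic gene Bbc3 rose at both ages (1.66 and 1.88, adjusted P=0.00131 and 1.68e-04), and Bax at P35 (0.83, adjusted P=2.70e-04). Perp was a DEG at P21 (1.06, adjusted P=0.00916) in 1 of the 8 fits without 1 library.

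Among the 5 ubiquitin ligases known from muscle atrophy, 1 was called higher at P21, beside 3.18% of all genes. At P35 2 were called higher, beside 8.49%, and 1 lower, beside 7.52%. Trim63 (MuRF1) rose from 130 ± 9.46 to 330 ± 47.8 CPM at P21 (1.36, adjusted P=1.42e-04) and from 169 ± 22.9 to 403 ± 60.0 CPM at P35 (1.28, adjusted P=1.71e-04). Fbxo32 (atrogin-1) rose at P35 (0.92, adjusted P=0.00654), a call that held in 2 of the 8 fits without 1 library. Fbxo31 was lower at P35 by 0.71 (adjusted P=0.00130), and by 0.31 with library totals.

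**Figure D5:**
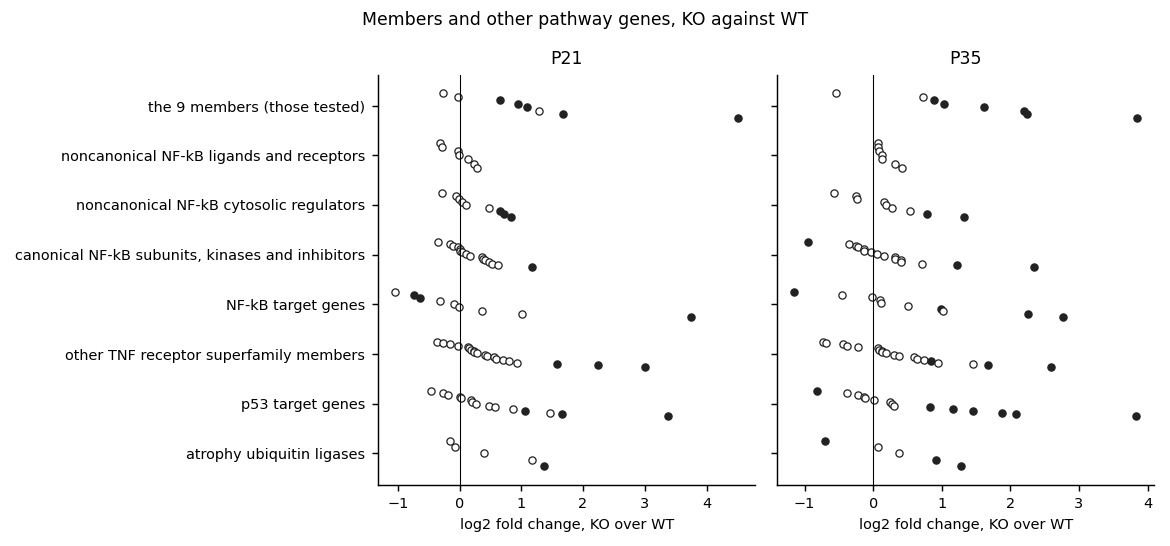
KO to WT log2 fold changes (horizontal axes) of the members tested and of the 7 other lists (rows) at P21 (left) and P35 (right), 1 point per gene, filled where the gene was a DEG and open where not, spread vertically within a row only to part the points. The ligands and receptors row holds open points alone, while Eda2r at 4.51 and 3.85 and Cdkn1a at 3.38 and 3.83 are among the points farthest to the right.

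Markers of other cells moved along with these values at the late ages. The 9 macrophage markers summed to 104 to 127 CPM in WT and 140 to 173 CPM in KO at P21. Of these, 3 of 9 were called higher, beside 3.18% of all genes. At P35 they summed to 104 to 126 CPM and 137 to 208 CPM, with 6 of 9 called higher beside 8.49%. None was at 0, and Mrc1 went the other way, at -0.15 at P21 and -0.34 at P35. The 7 T and B lymphocyte markers summed to at most 2.6 CPM in any library from P14 on. At P35 adipocyte markers were higher in KO (3 of 4 DEGs, beside 8.49% of all genes called higher, median log2 difference of 2.86). Called lower at that age were 2 of 6 muscle fibre, 2 of 5 endothelial and 1 of 3 satellite cell markers, beside 7.52% of all genes. The 5 Schwann cell markers had a median log2 difference of 1.63 at P35, with 0 of 5 DEGs and overlapping sums of 47.5 to 398 CPM in WT and 208 to 872 CPM in KO. Ngfr, which Schwann cells also express, was higher in KO at that age. In whole muscle, fewer cells of a type and less RNA per cell cannot be told apart, and the part of cell composition in the differences of the 9 genes was not tested.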

How the data were processed

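RNAseq of skeletal muscle (TA per the methods) from 32 mice was used to see which pathways change with the stages of disease. The authors deposited expected counts per gene and library from RSEM, without scaling or pooling. The submitters' processing notes name STAR 2.6.1, RSEM 1.2.22, DESeq2 and GRCm38, and the methods name HTSeq as the counter. Whether counting used the strand of the directional libraries, and the annotation release, are not given in the sources used here. Of 54838 genes, 54723 had a symbol in GENCODE M21, which gave coordinates and exon lengths. Unused columns numbered 0.

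Counts were rounded (4.26% of values were not whole). In edgeR 4.0.16 (R 4.3.3) the steps were filterByExpr, TMM, glmQLFit and the two-sided glmQLFTest, and P-values were adjusted by Benjamini-Hochberg across the genes tested. KO and WT were compared in the 8 libraries of each age, neighbouring ages in the 16 libraries of each genotype, and KO effects between ages in 1 fit of 32. A DEG needed an adjusted P-value under 0.01 and a fold over 1.5. For likeness, log2 CPM had a prior count of 2. Counts cover counting error only, and 3 counts were taken as the floor.

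Samples were grouped by the genotype, age and replicate number in the labels. Same-numbered WT and KO libraries deviated together at P14 (r from 0.19 to 0.59 in every pair), so values with the number as a block stand beside the P14 results, and the block is an alternative at the other ages. The labels state no pairing, and some unlike numbers at P14 deviated together as well (r=0.369 for WT replicate 2 with KO replicate 1). The members and gene lists were chosen with earlier results of these data known. Besides the members and Mtm1, genes were named by a rule: up to 3 DEGs with the smallest adjusted P-value per list and age, and the 5 genes most like Eda2r. Alternatives were DESeq2 1.42.0, library totals, other filters, all libraries in 1 fit, the block and leaving out each library. The fits were tested on simulated data. Of simulated log2 changes of 1, the call rule recovered 63% at P14 and 64% at P21, so a gene not called may still differ. Of changes of 2 it recovered 98% and 88%. The simulation changed 100 genes by each of these sizes, whereas 5 of 15728 genes were called at P14 in the data. Fewer calls make the adjusted cut stricter, so recovery at P14 may be lower than these shares. Promoter windows came from RefSeq (8 of 9 members matched). Figures were drawn with matplotlib 3.10.9, and tables made in python 3.11.15 with pandas 2.3.3.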

Additional observations from a re-analysis of the deposited data

Results flagged for a closer look

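In 6 of 70 groups of 4 libraries, 1 library stood apart from the other 3 (Dixon's ratio of gap to range above its 95% critical value), where chance gives about 1 in 20. Edar at 3.89 CPM and Edaradd at 1.90 CPM were the highest values of WT P1, both in replicate 3. Eda at 14.3 CPM and Nfkb2 at 9.62 CPM were the lowest of KO P1, both in replicate 4. Relb at 9.95 CPM was the highest of WT P21, in replicate 3, and Edaradd at 0.0679 CPM that of KO P21, in replicate 1, from 3 counts.

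The KO effect of 5 list genes differed between neighbouring ages in edgeR's interaction test, beside 0.425% of all genes from P14 to P21 and 0.463% from P21 to P35. From P14 to P21 it grew by 0.68 on the log2 scale for Cyld (adjusted P=6.91e-05), 2.31 for Cdkn1a (adjusted P=0.00369), 1.45 for Tnfrsf23 (adjusted P=0.00413) and 2.55 for Cxcl10 (adjusted P=0.00933). From P21 to P35 that of Tab2 changed by -0.63 (adjusted P=0.00142). When only the libraries of both ages were fitted, the call of Tab2 was lost, as were some of those from P14 to P21.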

How the results depend on the processing

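Calls of members between KO and WT at P21 and P35 were within 1.5 times the count given under every alternative. At P14 the count of 0 became 1 (Eda2r) with library totals, no filter on low counts, the replicate block, DESeq2 or all 32 libraries in 1 fit. List genes called became 2 at P1 and 1 at P14 with DESeq2, and 4 at P14 with the replicate block. The replicate block changed no other count of members, nor of list genes between KO and WT, by over 1.5 times, although at P21 it added Tnfrsf12a and dropped Birc3. The numbers did not pair the libraries at P1, P21 or P35 (mean r of -0.14, 0.07 and 0.05), nor across ages. With library totals, members called were 8 from P1 to P14, 2 from P14 to P21 and 1 from P21 to P35 in WT, and 0 from P21 to P35 in KO, and from P1 to P14 the signs of Relb (-0.72) and Nfkb2 (-0.75) in WT and of Map3k14 (-0.70) and Nfkb2 (-0.08) in KO reversed. Eda2r in WT (0.51 to -0.26) and Relb in KO (0.41 to -0.29) changed sign too. That scaling shifts the median of all genes by 0.03, 0.09, 0.19 and 0.40 between KO and WT from P1 to P35, by -0.76 and -0.70 in the first step of WT and KO, by -0.18 in the second of WT and by 0.15 in the last of KO. The share of higher genes among those called moved from 68.0% to 90.9% at P21, from 53% to 93.0% at P35, from 45.3% to 14.1% and 48.1% to 21.6% in the first 2 steps of WT, and from 45.2% to 15.0% and 51.6% to 82.6% in the first and last of KO. With at least 10 counts in every library, which drops low genes, the first KO step had 2 calls. Interactions of list genes were 2 (P21 against P14) and 0 (P35 against P21) with only the 16 libraries of both ages. Of the 5 genes most like Eda2r, 2 remained with 24 libraries and 2 with Spearman's rho. Leaving out 1 library gave 0 to 0, 0 to 1, 4 to 5 and 6 to 7 members and 0 to 0, 0 to 0, 11 to 15 and 17 to 23 list genes from P1 to P35, 3 to 4, 1 to 2 and 0 to 2 members over the steps of WT, and 4 to 5, 4 to 5 and 0 to 1 over those of KO. Of the other values recomputed, 1622 kept direction and call, 58 lost a call, 13 gained one, 11 moved and 4 reversed. The causes were not tested. After P1, Edar had 2 to 91 counts per library and Edaradd 0 to 11.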

Other observations

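Beyond the rule for named genes, 4 further p53 target genes were DEGs at P35 in edgeR's test and are named after their values were seen. Pmaip1 (Noxa) was at 0.242 ± 0.102 CPM in WT and 1.02 ± 0.295 CPM in KO (log2 2.08, adjusted P=0.00128), Perp at 3.85 ± 1.30 and 10.4 ± 2.87 CPM (1.45, adjusted P=0.00196) and Btg2 at 37.4 ± 8.59 and 82.2 ± 31.2 CPM (1.16, adjusted P=0.00587), the last of which was called in 4 of the 8 fits without 1 library. Ccng1 was lower in KO, at 1399 ± 123 and 777 ± 61.9 CPM (-0.82, adjusted P=3.34e-04, and -0.42 with library totals). Ccl2, a chemokine gene and NF-kB target, was at 0.364 ± 0.132 and 1.72 ± 1.03 CPM (2.25, adjusted P=0.00753), called in 1 of those 8 fits. Over the 24 libraries of P14, P21 and P35, Cdkn1a had Pearson's r of 0.93 with Eda2r (rank 22 of 18582). Over all 32 it was 0.61 (rank 793), and Spearman's rho was 0.57 (rank 817). Hsf2bp (0.974), Runx1 (0.966) and Krt18 (0.966) stood among the first 5 genes by Pearson's r over those 24 libraries. The libraries fall into shared groups of age and genotype, so nothing is read from these ranks.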
